A study of Mus musculus with 12 samples.

Results

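The genes described are 35 genes that rise in cells short of oxygen and that code for no enzyme of glycolysis. They were chosen by name as known targets of the hypoxia response. The rule uses no measured value, but the list was drawn up with earlier results of these data known. All 35 were measured and tested among 16573 genes. RNA came from 12 tumors grown from J2A cells, 4 in each of 3 groups that carry the numbers 1, 2, 4 and 5. J2A is a single line of aortic myofibroblasts from p16/p19/Vnn1 knockout C57BL/6 mice, so the grafted cells of all groups lacked p16, p19 and their own Vnn1, and all carried oncogenic Ras (RasV12) from a retrovirus. R tumors carried Ras alone, VR tumors also carried Vnn1, and VdR tumors carried Vnn1 that lacks its catalytic activity, with Vnn1 in both driven by the CMV promoter. Vnn1 is a pantetheinase, an enzyme that cleaves pantetheine into cysteamine and pantothenate, the vitamin from which coenzyme A is made. The cells were grafted under the skin of nude mice, which lack T cells and keep macrophages and NK cells. The age of the hosts was not given. The labels place the harvest at 2 to 3 weeks depending on growth, whereas the study's methods name a single day for all tumors put on arrays, so whether the time of harvest differed between groups is not settled by these sources. In the study, R and VdR grafts of J2A cells grew aggressively in nude mice, whereas VR grafts grew poorly. In comparisons with VR, group and tumor growth thus cannot be told apart. The size of each tumor on the arrays is not given, so any difference in growth between these R and VdR tumors is not known. No separate transduction for each tumor is described, so p-values measure the spread between grafts of one line and not between independently made cells.

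Cells sense oxygen through prolyl hydroxylases of the Egln family, which mark the HIF alpha subunits for destruction by the VHL ubiquitin ligase while oxygen is present. When oxygen falls, HIF alpha persists, pairs with Arnt and binds a short element with the core ACGTG or GCGTG near its target genes. Outside glycolysis these targets remove mitochondria, fold and hydroxylate collagen, demethylate histones, restrain growth signals and send peptides that act on vessels. In solid tumors they are known as a sign of tissue that has outgrown its blood supply.

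The promoters of 4 members that fell in more than 1 comparison below are shown because each holds that core. Windows of 250 bases before a RefSeq transcription start in GRCm38.p6 were at hand for 27 of the 35 genes. The other genes were absent from the set of windows used here, and the shares below leave them out. The motifs ACGTG and GCGTG were searched on both strands, and matches may overlap each other. Each window below is printed 5′ to 3′ on the strand of its gene, with the matches in capitals (CACGT and CACGC are the same motifs read from the other strand). They are Ankrd37 at chr8:45999851-46000100, Bnip3 at chr7:138909507-138909756, Ero1a at chr14:45318573-45318822 and Kdm3a at chr6:71632918-71633167, all on the minus strand, and they held 4, 5, 3 and 1 matches in that order.
Ankrd37: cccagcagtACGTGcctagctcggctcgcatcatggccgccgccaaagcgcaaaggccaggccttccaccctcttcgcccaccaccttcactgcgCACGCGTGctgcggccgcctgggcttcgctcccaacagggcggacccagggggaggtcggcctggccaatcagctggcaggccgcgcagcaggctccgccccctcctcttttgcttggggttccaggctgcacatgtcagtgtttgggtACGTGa
Bnip3: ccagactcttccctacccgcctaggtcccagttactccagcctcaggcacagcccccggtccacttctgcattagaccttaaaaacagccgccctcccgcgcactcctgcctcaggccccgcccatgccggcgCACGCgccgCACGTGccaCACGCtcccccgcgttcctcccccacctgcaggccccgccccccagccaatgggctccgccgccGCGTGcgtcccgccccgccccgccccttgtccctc
Ero1a: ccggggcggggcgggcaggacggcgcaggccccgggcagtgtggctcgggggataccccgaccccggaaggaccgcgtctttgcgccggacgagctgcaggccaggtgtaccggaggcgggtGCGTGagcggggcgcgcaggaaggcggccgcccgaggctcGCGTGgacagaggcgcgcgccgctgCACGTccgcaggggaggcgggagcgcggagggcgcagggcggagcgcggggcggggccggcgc
Kdm3a: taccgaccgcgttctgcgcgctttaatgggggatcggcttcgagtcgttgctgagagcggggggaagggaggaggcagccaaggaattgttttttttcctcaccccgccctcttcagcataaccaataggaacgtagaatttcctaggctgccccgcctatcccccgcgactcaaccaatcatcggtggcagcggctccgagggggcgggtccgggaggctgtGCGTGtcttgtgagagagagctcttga
Kdm3a has other annotated starts, and their windows hold no match. A match lay in 28 of 38 windows of the genes (73.7%, some windows of one gene overlap), in 50.4% of the 16379 windows of genes tested and in 38.6% of all 32851 windows. Among genes called lower in VR versus R, 15 of 17 with a window held a match, and among the genes not called 9 of 10 did. A match was thus about as frequent among genes not called as among genes called. No match was found for Nfil3 and Mif, which also passed in more than 1 comparison.

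Hypoxia response genes were mostly lower in tumors with active Vnn1 than in tumors with Ras alone, and no gene of the set rose. In VR versus R, 23 of 35 genes fell (limma over all 12 tumors, Benjamini-Hochberg adjusted p under 0.05 over 16573 genes), which is 65.7% of them beside 7.48% of all genes tested, and 0 rose, beside 13.6%. For 20 genes every VR tumor lay below every R tumor, beside 10.5% of all genes, and 32 had a log2 fold change below 0, beside 53.0%. The median log2 fold change was -0.50 over the 35 genes and -0.01 over all genes tested. The catalytically deficient form went with fewer calls. In VdR versus R, 5 genes fell (14.3%, beside 2.81% of all genes) and 0 rose (beside 6.58%), while 32 had a value below 0 (beside 48.9%), with a median of -0.32. Between VR and VdR tumors 1 gene fell (2.86%, beside 1.67% of all genes) and 0 rose (beside 1.77%), while 30 had a value below 0 (beside 56.4%), with a median of -0.14. The group means ran from R over VdR down to VR in 29 of 35 genes (82.9%, beside 28.4% of all genes). The comparisons share tumors, as each group stands in 2 of the 3, so their counts are not independent of each other. At an unadjusted p under 0.05, 27 genes were lower in VR than in R (beside 14.3% of all genes) and 2 higher (Stc2 and Kdm4c, beside 20.6%). In VdR versus R these were 21 lower (beside 8.08%) and 1 higher (Wsb1, beside 15.1%), and in VR versus VdR 5 lower (beside 9.27%) and 0 higher (beside 9.93%).

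**Figure D1:**
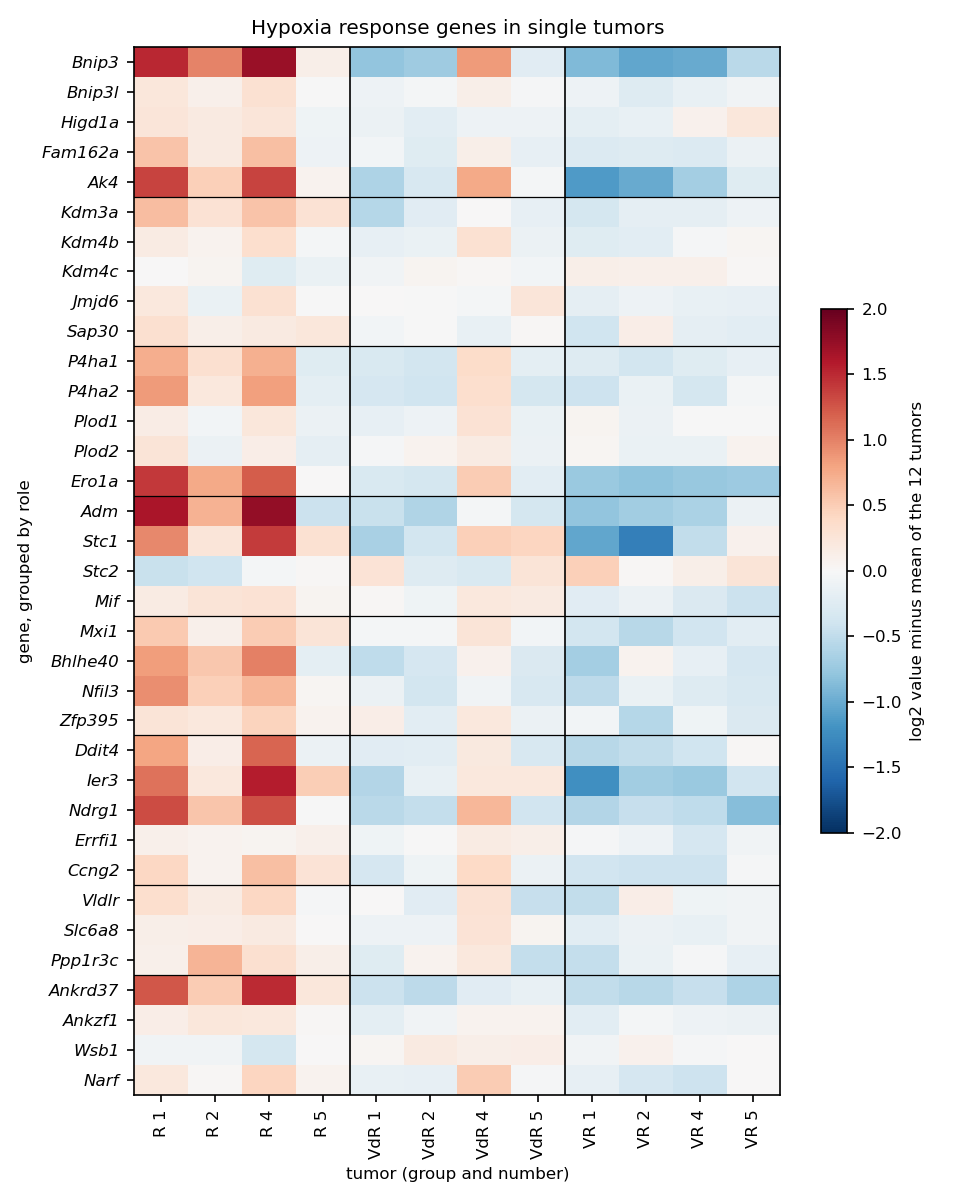
Log2 value of each of the 35 genes minus its mean over the 12 tumors, with 1 row for each gene, grouped by role between the horizontal lines, and 1 column for each tumor, with vertical lines between R, VdR and VR. Red is above and blue below the gene's mean, and the strongest red lies in R tumors 1 and 4, among others for Adm, Bnip3 and Ier3. VdR tumor 4 is redder than the other VdR tumors in most rows.

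The bulk tumors hold several cell types, and in such RNA fewer cells of a type and less RNA per cell cannot be told apart. The labelled tissue was present, since all 8 markers of fibroblasts and myofibroblasts were measured, with a mean log2 value per tumor of 11.002 to 11.50 in R tumors, 11.22 to 11.52 in VdR tumors and 11.50 to 11.77 in VR. Their mean was thus highest in the group where the hypoxia genes were lowest. Vnn1 RNA separated R from both Vnn1 groups as labelled, with log2 values of 5.53 to 5.83 in R tumors, 11.37 to 11.73 in VdR tumors and 10.54 to 11.26 in VR. These values cannot tell the active form from the deficient one. Every VR tumor lay below every VdR tumor in Vnn1. Of 15 macrophage markers, 12 were higher in VR than in R and 13 in VdR than in R, with none between VR and VdR. The mean of the macrophage markers lay at 9.33 to 9.57 in R tumors, 10.33 to 10.65 in VdR tumors and 10.28 to 10.40 in VR, so it separated both Vnn1 groups from R. Of 7 endothelial markers 2 were higher in VR than in R, with a mean of 8.88 to 9.53 in R tumors, 9.0 to 9.33 in VdR tumors and 9.42 to 9.77 in VR. Of 4 NK cell markers 2 were tested, and both were higher in VR than in R and in VdR. The mean of 5 skeletal muscle markers ranged from 6.89 to 9.79 over the tumors, and none of these markers had a call in any comparison. Of the T cell markers Cd3e and Cd2 were tested and had no call, while Cd3d, Cd3g and Lck were not tested. Of the neutrophil markers S100a9 had no call and Csf3r was higher in VR than in R (0.76, adjusted p = 0.0159 by limma), while Ly6g, S100a8, Cxcr2 and Retnlg were not tested. The B cell marker Cd79b was higher in VR than in R (0.50, adjusted p = 0.00161 by limma) and in VdR (0.40, adjusted p = 0.0292). The part of these cell types in the differences of the hypoxia genes was not tested here. The study took up infiltrating cells by qRT-PCR in tumors of another line, after removal of hematopoietic cells. It reports hypoxic and glycolytic transcripts tied to R tumors, Adm and Bnip3 among them, as significantly enhanced in those dissociated cells. Within groups, the mean of the 35 genes had a Pearson's r of -0.24 with the macrophage mean, 0.49 with the endothelial mean and 0.47 with the fibroblast mean over the 12 tumors.

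Of the 5 mitochondrial proteins, 4 fell in VR versus R. Bnip3, a receptor on the outer membrane that hands mitochondria to autophagy, had log2 values of 11.13, 10.62, 11.35 and 9.74 in R tumors 1, 2, 4 and 5, of 8.84, 8.91, 10.48 and 9.40 in the VdR tumors of the same numbers and of 8.74, 8.59, 8.62 and 9.09 in the VR tumors. Every VR tumor lay below every R tumor, whereas VdR tumor 4 lay above R tumor 5, so that the VdR and R groups overlapped. The log2 fold change of Bnip3 in VR versus R was -1.95 (SE 0.375, adjusted p = 0.00352 by limma), a level 3.86 times lower and the largest change of the 35 genes. Against R the VdR tumors had -1.30 (SE 0.375, adjusted p = 0.0479 by limma), and this call was lost when any tumor but R tumor 5 or VdR tumor 4 was left out (adjusted p 0.0565 to 0.14). Both probesets of Bnip3 had the same direction, with -1.95 and -1.63.
Ak4, a mitochondrial adenylate kinase, fell by 1.58 on the log2 scale in VR versus R (SE 0.338, adjusted p = 0.00639 by limma), and its tumors ranged from 8.54 to 9.83 in R and from 7.33 to 8.23 in VR. The second probeset of Ak4 had a smaller difference of -0.50. Fam162a, a protein linked to cell death under hypoxia, had -0.54 (adjusted p = 0.0148), and Bnip3l, the close relative of Bnip3, had -0.30 (adjusted p = 0.0132 by limma). Bnip3l had the lowest value, 12.01, in a VR tumor and the highest, 12.57, in an R tumor. Higd1a, a small protein of the inner membrane, had -0.15 in VR versus R and -0.28 in VdR versus R and passed in neither (adjusted p = 0.278 and 0.0991), although every VdR tumor lay below every R tumor. In its second probeset R tumor 5, at 5.80, lay below every VdR tumor (5.87 to 5.97). Both probesets read low, with means of 6.22 and 6.01 over the tumors.

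Among the 4 secreted proteins, 3 fell in VR versus R. Adm codes for adrenomedullin, a peptide that widens vessels. Its log2 values were 9.66, 8.73, 9.79 and 7.60 in R tumors 1, 2, 4 and 5, then 7.58, 7.42, 7.99 and 7.68 in VdR tumors and 7.23, 7.33, 7.40 and 7.91 in VR. R tumor 5 stood at the level of the other groups, so that Adm overlapped between groups in each comparison and had the widest spread of the genes in R (SD 1.01, n = 4, beside 0.24 in VdR and 0.30 in VR). The log2 fold change of Adm in VR versus R was -1.48 (SE 0.380, adjusted p = 0.0158 by limma). Its difference in VdR versus R was -1.28 (SE 0.380, adjusted p = 0.0545), which passed without R tumor 5 (adjusted p = 0.00138).
Mif, a cytokine that holds macrophages in place, had log2 values of 12.48, 12.57, 12.60 and 12.36 in R tumors, 12.33, 12.22, 12.52 and 12.49 in VdR tumors and 12.09, 12.19, 12.02 and 11.88 in VR. R and VdR tumors overlapped, while every VR tumor lay below all of both. Mif fell by 0.46 on the log2 scale in VR versus R (SE 0.0853, adjusted p = 0.00291 by limma). It was the 1 gene that fell in VR versus VdR (-0.34, SE 0.0853, adjusted p = 0.0484 by limma), a call lost when any tumor but R tumor 5 or VdR tumor 2 was left out (adjusted p 0.0574 to 0.127). The difference of Mif in VdR versus R was -0.11 (adjusted p = 0.472). Its 3 probesets gave -0.46, -0.47 and -0.47 in VR versus R, and they may share sequence with near-identical copies of the gene.
The stanniocalcins, a pair of secreted glycoproteins, went apart. Stc1 had -1.43 in VR versus R (adjusted p = 0.0136 by limma) with R tumors at 9.40 to 10.55 and VR tumors at 7.80 to 9.24. Stc2 had its highest mean in VR tumors (7.59 in R, 7.80 in VdR and 8.02 in VR), with a difference of 0.43 that did not pass (SE 0.160, adjusted p = 0.0756 by limma).

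**Figure D2:**
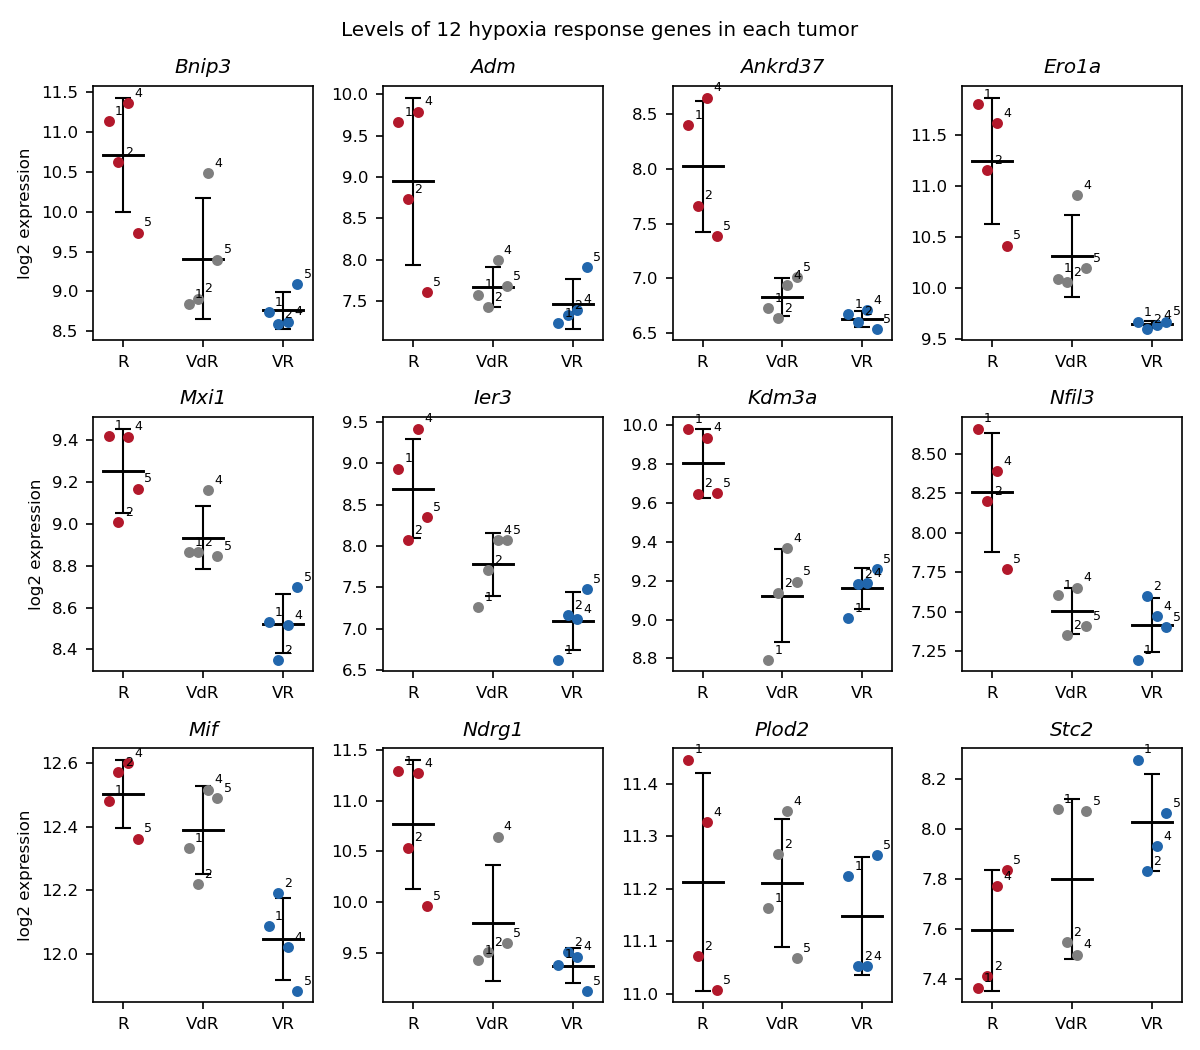
Log2 expression of 12 of the genes in each tumor, with 1 panel for each gene and its own vertical axis, 1 point for each tumor marked with its number, and the group mean with the SD of 4 tumors as bars. In R, tumors 1 and 4 are the highest and tumor 5 is the lowest for Bnip3, Adm, Ero1a and Ndrg1, and VdR tumor 4 stands above the other VdR tumors for Bnip3, Ero1a, Mxi1 and Ndrg1.

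All 4 transcription factors fell in VR versus R. Mxi1, a partner of Max that opposes Myc, had log2 values of 9.42, 9.01, 9.42 and 9.17 in R tumors, 8.86, 8.86, 9.16 and 8.84 in VdR tumors and 8.53, 8.35, 8.51 and 8.70 in VR. The VR tumors lay below all others, and VdR tumor 4 reached into the range of R. Mxi1 had the lowest adjusted p of the 35 genes in VR versus R (-0.73, SE 0.108, adjusted p = 8.59e-04 by limma). Its difference was -0.32 in VdR versus R (adjusted p = 0.0896) and -0.41 in VR versus VdR (adjusted p = 0.0563), near and above the threshold in both. It passed in VdR versus R under 3 of 22 alternatives, among them without R tumor 2 or VdR tumor 4 (adjusted p = 0.0332 and 0.0427 by limma). In VR versus VdR it passed under 4 of the 22 (lowest adjusted p = 0.0425 by limma).
Nfil3, a basic leucine zipper factor known as a repressor, read 8.66, 8.20, 8.39 and 7.77 in R tumors, 7.61, 7.35, 7.65 and 7.41 in VdR tumors and 7.20, 7.60, 7.47 and 7.40 in VR. Every R tumor lay above every other tumor, and the VdR and VR groups overlapped. The log2 fold change of Nfil3 was -0.84 in VR versus R and -0.75 in VdR versus R (SE 0.157 for both, adjusted p = 0.00295 and 0.0100 by limma). The difference between VR and VdR was -0.09 (SE 0.157, adjusted p = 0.809).
Bhlhe40, a helix-loop-helix repressor of the clock, had nearly the same difference in both Vnn1 groups, with -0.83 in VR versus R (adjusted p = 0.0266 by limma) and -0.81 in VdR versus R (adjusted p = 0.0512). Zfp395, a zinc finger factor, had -0.50 in VR versus R (adjusted p = 0.0159 by limma).

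Among 5 regulators of growth and stress, 4 fell in VR versus R. Ier3, an early response gene tied to cell survival, had log2 values of 8.94, 8.07, 9.42 and 8.35 in R tumors, 7.26, 7.71, 8.07 and 8.07 in VdR tumors and 6.62, 7.16, 7.12 and 7.48 in VR. The group means stepped down from R over VdR to VR, and VdR overlapped with both other groups. Ier3 had -1.60 in VR versus R (SE 0.281, adjusted p = 0.00218 by limma), with every VR tumor below every R tumor. In VdR versus R the difference of Ier3 was -0.92 (SE 0.281, adjusted p = 0.0617 by limma) and in VR versus VdR it was -0.68 (SE 0.281, adjusted p = 0.207), so neither step passed alone. Ndrg1, a growth and differentiation protein, ranged from 9.97 to 11.29 in R tumors, from 9.43 to 10.65 in VdR tumors and from 9.13 to 9.52 in VR, with -1.39 in VR versus R (SE 0.306, adjusted p = 0.00748 by limma) and -0.97 in VdR versus R (adjusted p = 0.0698).
Ddit4, an inhibitor of mTORC1, had -0.84 in VR versus R (adjusted p = 0.0268 by limma) and Ccng2, a cyclin known from arrested cells, -0.64 (adjusted p = 0.0109 by limma). Errfi1, a brake on the EGF receptor, was at 12.76, 12.73, 12.72 and 12.77 in R tumors, 12.58, 12.66, 12.82 and 12.78 in VdR tumors and 12.64, 12.56, 12.33 and 12.59 in VR. Each VR tumor lay below each R tumor, but the difference was small and did not pass (-0.21, SE 0.0730, adjusted p = 0.0567 by limma). In VR versus VdR Errfi1 had -0.18 (adjusted p = 0.206).

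Of 5 enzymes that modify and fold collagen and other secreted proteins, 2 fell in VR versus R. Ero1a, the oxidase of the endoplasmic reticulum that supplies disulfide bonds, had log2 values of 11.81, 11.16, 11.62 and 10.41 in R tumors, 10.09, 10.05, 10.91 and 10.19 in VdR tumors and 9.66, 9.60, 9.64 and 9.67 in VR. VR tumors were nearly equal (SD 0.032, n = 4, beside 0.620 in R and 0.402 in VdR) and lay below every R and every VdR tumor. Ero1a fell by 1.61 on the log2 scale in VR versus R (SE 0.261, adjusted p = 0.00140 by limma) and by 0.94 in VdR versus R (SE 0.261, adjusted p = 0.0417 by limma). The VdR call was lost when any tumor but R tumor 5 or VdR tumor 4 was left out (adjusted p 0.0546 to 0.124). In VR versus VdR its difference was -0.67 (SE 0.261, adjusted p = 0.181), although the groups did not overlap.
P4ha1 and P4ha2, the catalytic subunits of collagen prolyl hydroxylases, had almost the same difference in VR versus R, with -0.63 for P4ha1 (adjusted p = 0.0430 by limma) and -0.65 for P4ha2 (adjusted p = 0.0581). In both, R tumor 5 lay in the range of the VR tumors. P4ha1 was at 11.63, 11.23, 11.61 and 10.67 in R and at 10.65, 10.55, 10.67 and 10.74 in VR tumors. The lysyl hydroxylases Plod1 and Plod2, which prepare collagen for cross-linking, had -0.07 each in VR versus R (adjusted p = 0.647 and 0.660 by limma), the differences nearest 0 among the 35 genes.

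Of 5 chromatin proteins, 2 fell in VR versus R. Kdm3a, a histone demethylase that needs oxygen, had log2 values of 9.98, 9.65, 9.94 and 9.65 in R tumors, 8.79, 9.14, 9.37 and 9.19 in VdR tumors and 9.01, 9.18, 9.19 and 9.26 in VR. Both Vnn1 groups lay below all R tumors and overlapped each other. Kdm3a fell by 0.64 on the log2 scale in VR versus R (SE 0.118, adjusted p = 0.00265 by limma) and by 0.68 in VdR versus R (SE 0.118, adjusted p = 0.00356 by limma), and it had the lowest adjusted p of the 35 genes in VdR versus R. The difference between VR and VdR was 0.04 (SE 0.118, adjusted p = 0.899). Sap30, a subunit of the Sin3 deacetylase complex, had -0.37 in VR versus R (adjusted p = 0.0145 by limma). The related demethylases did not pass, with -0.24 for Kdm4b (adjusted p = 0.150) and 0.17 for Kdm4c (adjusted p = 0.0881), and neither did Jmjd6, another oxygenase of the same fold (-0.24, adjusted p = 0.0879 by limma).

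The last genes take other roles. Ankrd37, an ankyrin repeat protein, had log2 values of 8.40, 7.67, 8.65 and 7.38 in R tumors, 6.73, 6.64, 6.94 and 7.01 in VdR tumors and 6.67, 6.61, 6.71 and 6.54 in VR. Every R tumor lay above all others. Ankrd37 fell by 1.39 on the log2 scale in VR versus R (SE 0.222, adjusted p = 0.00126 by limma) and by 1.20 in VdR versus R (SE 0.222, adjusted p = 0.00534 by limma), and between VR and VdR its difference was -0.20 (SE 0.222, adjusted p = 0.681). Of the genes for transport, lipid and glycogen, Ppp1r3c, which targets a phosphatase to glycogen, had -0.50 in VR versus R (adjusted p = 0.0455 by limma) and Slc6a8, the creatine transporter, -0.24 (adjusted p = 0.0495 by limma). Ppp1r3c read low, at 5.78 to 6.36 in R tumors and 5.20 to 5.66 in VR, near the filter of 5.38. It was not tested with the stricter filter. Vldlr, the receptor of very low density lipoprotein, had -0.35 (adjusted p = 0.147). Ankzf1, a factor of ribosome quality control, fell in VR versus R, with R tumors at 7.35 to 7.55 and VR tumors at 7.10 to 7.27. Narf, which binds prelamin A, had -0.41 (adjusted p = 0.0695 by limma) and Wsb1, a subunit of a ubiquitin ligase, had 0.12 (adjusted p = 0.268). Wsb1 was the 1 gene of the 35 with every VdR tumor above every R tumor (0.24, adjusted p = 0.0622), beside 9.73% of all genes. In the other direction 5 genes had every VdR tumor below every R tumor, beside 4.50%, and 4 had every VR tumor below every VdR tumor, beside 6.77%, while 0 had every VR tumor above (beside 5.88%). Against R, 0 genes had every VR tumor above every R tumor, beside 15.3%.

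**Figure D3:**
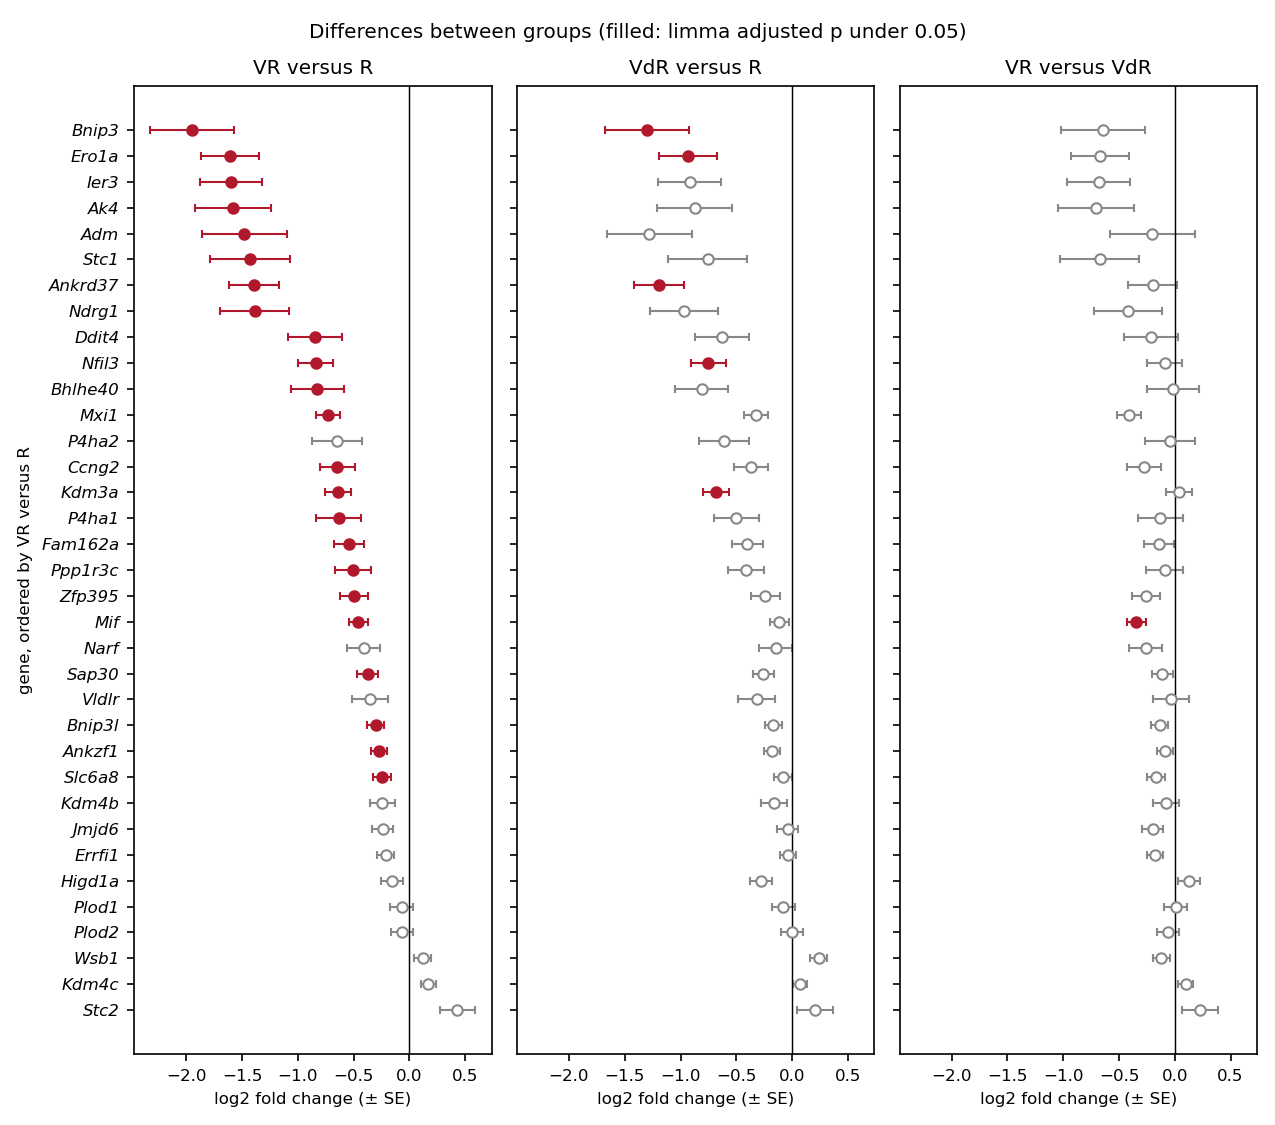
Log2 fold change of each of the 35 genes with its standard error (limma) in VR versus R, VdR versus R and VR versus VdR, with genes from top to bottom by their value in the first panel. Filled points passed at an adjusted p under 0.05, and these are 23, 5 and 1, all left of 0.

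The call in VR versus R held for 10 of the 23 genes under each of the 22 alternatives that changed the samples, values or test at the same threshold, which were Ak4, Ankrd37, Bnip3, Ccng2, Ero1a, Ier3, Kdm3a, Mif, Mxi1 and Ndrg1. With a minimum of 1.5-fold added, 15 of the 23 remained, and Mif, at 1.37 times lower in VR than in R, was not among them. For Ankzf1, Bhlhe40, Ddit4, P4ha1, Ppp1r3c, Slc6a8 and Zfp395 the call was lost when at least 1 single tumor was left out. In VdR versus R, leaving out R tumor 5 raised the count from 5 to 14 genes and leaving out VdR tumor 4 raised it to 11.

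The 35 genes also varied together from tumor to tumor within a group. To see this apart from the group differences, each log2 value was taken as its deviation from the group mean, and pairs of genes were correlated over the 12 tumors (Pearson's r, as a description with no p). The median r over the 595 pairs was 0.49, with quartiles at 0.13 and 0.74, beside 0.03 and quartiles at -0.25 and 0.31 over all 137323878 pairs of genes tested. Of the pairs of hypoxia genes, 16.3% had r above 0.8 and 80.8% had r above 0. All pairs share the same 12 arrays.
With the mean of the other 34 genes, 16 genes had r above 0.8 and 26 above 0.5. The highest were Ak4 (0.96), P4ha2 (0.96), P4ha1 (0.95), Bnip3 (0.95), Ero1a (0.93), Fam162a (0.92) and Ddit4 (0.91), which come from the mitochondrial, collagen and growth groups. The closest pair was P4ha1 and Ero1a (r = 0.99). Plod1 and Plod2, which had the smallest differences in VR versus R, still followed the others within groups (r = 0.85 and 0.74). P4ha2, which did not pass in VR versus R, had nearly the highest r of all. In contrast Mif, called in 2 comparisons, had r = 0.40, and 4 genes had r below 0, which were Sap30 (-0.04), Kdm4c (-0.14), Stc2 (-0.38) and Wsb1 (-0.51). Stc2, Kdm4c and Wsb1 were also the 3 genes with a higher mean in VR than in R.

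**Figure D4:**
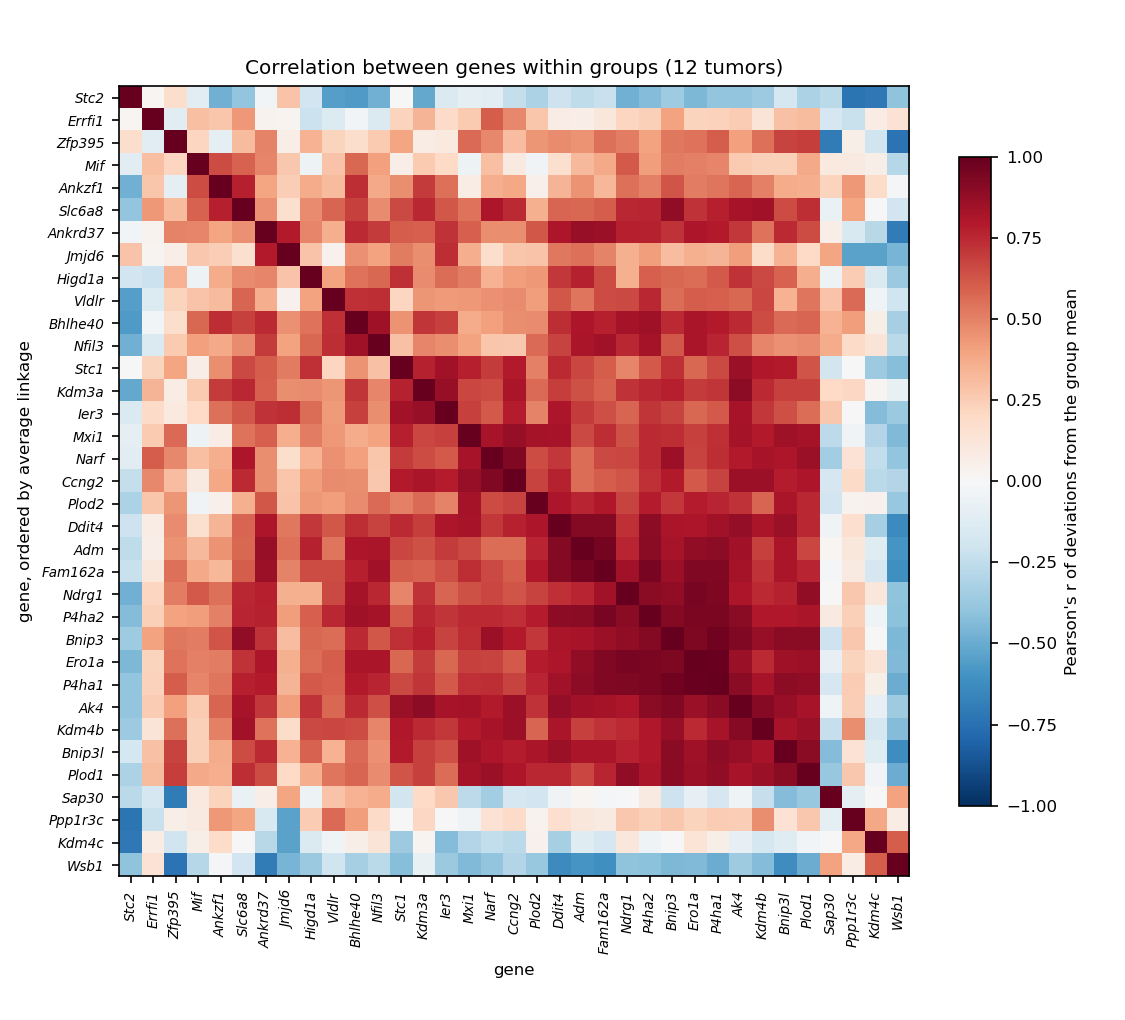
Pearson's r of the deviations from the group mean for each pair of the 35 genes over 12 tumors, with genes on both axes in the order of average linkage clustering. A dark red block with Ero1a, P4ha1, Bnip3, Ak4 and Fam162a lies in the middle and lower right, and Stc2, Wsb1, Kdm4c and Sap30 are pale or blue against it.

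The same tumors were high or low in many of the genes. The mean log2 value of the 35 genes was 9.68, 9.36, 9.75 and 9.15 in R tumors 1, 2, 4 and 5, then 8.90, 8.93, 9.33 and 9.03 in VdR tumors and 8.75, 8.81, 8.85 and 8.96 in VR. The highest R tumor was number 4 in 19 of 35 genes, beside 32.3% of all genes, and number 1 in 10, beside 17.8%. R tumor 5 was the lowest R tumor in 22 genes, beside 25.7% of all genes, and its mean was below that of VdR tumor 4. VdR tumor 4 was the highest of the VdR tumors in 27 of 35 genes, beside 23.0% of all genes, and VR tumor 5 was the highest of the VR tumors in 19, beside 32.9%. The median SD of the 35 genes was 0.208 in R tumors, 0.218 in VdR tumors and 0.168 in VR, beside 0.105, 0.109 and 0.0914 over all genes. The SD was largest in R for 18 genes (51.4%, beside 37.1% of all genes), in VdR for 12 (34.3%, beside 38.2%) and in VR for 5 (14.3%, beside 24.7%).

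Glycolysis genes, which are not among the 35, served as a yardstick. The yardstick is not independent of hypoxia, as the study lists Glut1 (Slc2a1) and Hk2 among transcripts of hypoxic and glycolytic signatures. Of 18 listed genes 15 were tested (Gapdh, Eno1 and Gpi1 were not named by a probeset of a single gene), and 12 of them fell in VR versus R and none was higher. Their mean log2 value per tumor lay from 10.50 to 11.04 in R tumors, from 10.26 to 10.62 in VdR tumors and from 10.11 to 10.21 in VR. Within groups, the median r of the 35 genes with this mean was 0.74, beside 0.05 over all genes tested. In two-sided exact permutation tests with tumors permuted within groups, 20 of the 35 genes were positive at an unadjusted p under 0.05, beside 5.46% of 16558 genes tested. None of the 35 passed after Benjamini-Hochberg adjustment over those genes, and no gene at all did. The smallest p that the 13824 arrangements allow is 7.23e-05. A pass after adjustment over 16558 genes would need many genes at or near that p, so the lack of passes says little. By Spearman's rho 21 genes were positive at an unadjusted p under 0.05 and 18 by both measures. The genes most like the yardstick by r were P4ha1 (r = 0.93, exact permutation p = 0.00188, rho = 0.88, p = 0.00231, adjusted p = 0.206 and 0.268) and Plod1 (r = 0.92, exact permutation p = 5.06e-04, rho = 0.90, p = 0.00304, adjusted p = 0.186 and 0.277). Without R tumor 4 and VdR tumor 4, which lay farthest from the median, 4 genes were positive at an unadjusted p under 0.05 over the 864 arrangements left, and the median r was 0.56. The count was 10 without VdR tumor 4 alone and 20 without R tumor 4 alone, so for many of the genes the unadjusted call rests on VdR tumor 4. Leaving out any other single tumor gave 18 to 23. Bnip3l and Plod1 had r = 0.82 and 0.90 without both tumors (exact permutation p = 0.00694 and 0.00810).

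**Figure D5:**
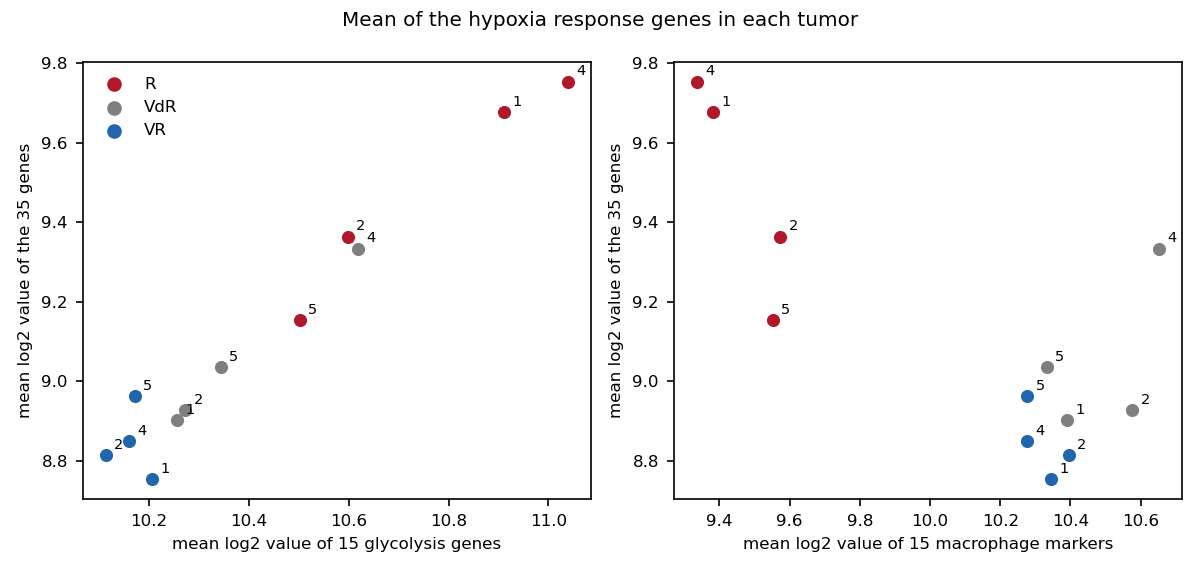
Mean log2 value of the 35 genes in each tumor (vertical axis) against the mean log2 value of 15 glycolysis genes (left) and of 15 macrophage markers (right), with 1 point for each tumor, colored by group and marked with its number. On the left the tumors lie near one line from the VR group to R tumor 4. Within VR, tumor 1 has the highest glycolysis mean and the lowest mean of the 35 genes. On the right the R tumors lie apart at 9.33 to 9.57 while VdR and VR tumors share the range from 10.28 to 10.65.

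Outside the 35, the genes whose deviations were most like those of their mean over the 12 tumors were Slc2a1 (r = 0.97), the glucose transporter, Hspa1a (0.97), a heat shock chaperone, Dbn1 (0.97), an actin binding protein, Rusc2 (0.96) and Mgarp (0.96), a mitochondrial protein. Of these, Slc2a1 is also part of the glycolysis yardstick above. Slc2a1 had -1.50 in VR versus R (adjusted p = 0.00273 by limma) and Mgarp -0.74 (adjusted p = 0.00983), while Hspa1a, Rusc2 and Dbn1 did not pass (adjusted p = 0.0718, 0.0529 and 0.296). Of the 16538 genes outside the list, 212 (1.28%) had r above 0.8 with the mean of the 35.

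Other genes of the same response were also lower for the most part in VR versus R. Of 22 further hypoxia genes 21 were tested, and 12 fell in VR versus R and 1 was higher, with a median of -0.58. In VdR versus R 5 fell and 1 was higher, and in VR versus VdR 1 fell. Those with the lowest adjusted p in VR versus R were Gys1, glycogen synthase (-0.62, adjusted p = 0.00139), Egln1, the main oxygen sensor (-0.50, adjusted p = 0.00158), Slc16a3, which exports lactate (-1.89, adjusted p = 0.00224), and Cxcr4, a chemokine receptor (-1.0, adjusted p = 0.00275 by limma). The gene that rose was Pfkfb4 (0.32, adjusted p = 0.0126 by limma), a regulator of glycolysis.
Of 10 HIF subunits and oxygen sensors, 2 fell in VR versus R, Egln1 and Egln3, both of which also stand in the list of further hypoxia genes. Epas1, the HIF2 alpha subunit common in endothelium, rose (0.73 in VR versus R, adjusted p = 0.00997, and 0.78 in VR versus VdR, adjusted p = 0.0312 by limma). Hif1a, the widely expressed alpha subunit, had -0.14 in VR versus R (adjusted p = 0.146) and fell by 0.26 on the log2 scale in VdR versus R (adjusted p = 0.0209 by limma).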

How the data were processed

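RNA of 12 subcutaneous tumors was hybridised to mouse gene arrays. According to the submitters' processing notes, the authors ran RMA through oligo, with versions not given in the sources used here. The values deposited are on a log2 scale, 1 per probeset, and RMA brings all arrays to one distribution, which hides any change in total RNA. The extraction text of the labels mentions sorted subsets, whereas the study describes RNA of whole tumors. Of 35556 probesets, 21789 had 1 gene symbol, 1621 several and 12146 none. The probeset with the highest mean was used per gene, and genes above 5.38 (the 25th percentile) in at least 4 arrays were tested. Array medians lay between 6.66 and 6.77 and arrays of a group correlated at 0.992 to 0.997 across genes. Groups were compared with limma 3.58.1 in R 4.3.3, with 1 coefficient per group and no covariate, and Benjamini-Hochberg adjustment. Tested on simulated data (VR versus R, 16573 genes), the fit found 44 of 50 genes changed by 1.5-fold and 49, 50 and 49 of 50 changed 2-fold, 3-fold and 4-fold, with 13 false among 205 calls. Correlations and permutations used Python 3.11.15, numpy 2.4.6 and scipy 1.17.1. For the glycolysis relation, p-values were adjusted over all genes outside the yardstick.

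The members, roles and lists were chosen with earlier results of these data known. Full values are given for Adm and Bnip3, which the study measured by qRT-PCR, the 8 genes with the lowest adjusted p in VR versus R, the 4 with the lowest in each other comparison and any gene called against the rest; values of other members were added for their role. Outside the list the 5 genes closest to the members' mean and at most 4 examples of each list were named, with Pfkfb4, Epas1 and Hif1a added after their values were seen. Adipocyte and keratinocyte markers had no call. Alternatives were no or a stricter filter, the mean of probesets, cyclic loess, median centring, array weights and a trended and robust prior. Further alternatives were a fit on 2 groups alone, the tumor number as a block, each tumor left out in turn, a t-test and a minimum of 1.5-fold. The study names t or ANOVA tests where it describes qRT-PCR, and no test per gene for the arrays. The number of arrays limits the precision.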

Additional observations from a re-analysis of the deposited data

Results flagged for a closer look

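Among the 105 sets of 4 tumors (35 genes in 3 groups), 8 held a tumor whose gap to its nearest neighbor was above Dixon's critical value for 4 samples. Chance gives about 1 such set in 20. In 6 of them the tumor was VdR tumor 4, which was high, with log2 values of 10.91 for Ero1a (the other VdR tumors reached 10.19 at most), 9.16 for Mxi1 (8.865), 10.65 for Ndrg1 (9.602), 8.532 for P4ha2 (7.866), 11.03 for Plod1 (10.64) and 8.853 for Kdm4b (8.437). The others were VR tumor 5, at 7.828 for Kdm4c, below 7.902 in the next VR tumor, and at 8.604 for Ccng2, above 8.243. These genes covary within groups, so the 8 sets are not independent of each other.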

How the results depend on the processing

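In VR versus R, 12 of the genes were lower by the t-test and 15 with at least a 1.5-fold change, beside 23. This count was 16 to 25 when 1 tumor was left out (16 without R tumor 4). The count of higher genes was 1 (Stc2) with array weights, with the replicate block and with only the groups compared, and 0 to 1 when a tumor was left out. The block used the tumor numbers, whose pairs correlated from -0.15 to 0.40 in their deviations, with 10 of 12 pairs above 0 and 8 above 0.1. The 3 pairs of number 2 lay between 0.23 and 0.40, and the tumors of that number had skeletal muscle means of 9.62, 9.30 and 8.83. High skeletal muscle means were not limited to that number, as VdR tumor 4 had 9.79 and R tumor 5 had 8.86. The remaining tumors lay from 6.89 to 7.05. The part of skeletal muscle in the values of these tumors was not tested. As not every pair was above 0.1, and 3 of 12 tumors were closest to their own number in both other groups, the numbers were not taken as pairs. The block changed the count of lower genes to 8 in VdR versus R and left 23 in VR versus R. In VdR versus R, 3 genes were lower with no filter and with trended and robust moderation, beside 5. The stricter filter gave 8, array weights 19 and the t-test 0. At an unadjusted p under 0.05 the t-test had 26 lower and 2 higher genes in VR versus R (beside 14.1% and 18.9% of all genes), 11 and 1 in VdR versus R (6.41% and 13.2%) and 6 and 1 in VR versus VdR (9.27% and 7.86%). Leaving out 1 tumor gave 3 to 14 lower genes and 0 to 1 higher, and array weights 1 higher. In VR versus VdR the count of lower genes was 0 with no filter, cyclic loess, only the groups compared, the t-test and the minimum of 1.5-fold, 2 with the stricter filter and with array weights, and 0 to 1 when a tumor was left out, beside 1. No gene was higher in VR than in VdR under any of these.

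Calls in VR versus R were lost for Ankzf1 and Zfp395 without R tumor 4 (adjusted p = 0.0506 and 0.0524), for Bhlhe40 without R tumor 1 or 4 or VR tumor 1 or 5 (0.0572 to 0.0832) and for Ddit4 without R tumor 1 or 4 or VR tumor 1, 2 or 4 (0.0628 to 0.0771). P4ha1 held its call only without R tumor 5, VdR tumor 2 or VdR tumor 4 (0.0514 to 0.126 otherwise), Ppp1r3c only without R tumor 1 or 5 or VdR tumor 4 or 5 (0.0525 to 0.116) and Slc6a8 only without R tumor 5 or VdR tumor 1, 2 or 4 (0.0626 to 0.129). The t-test also lost Adm, Bnip3l, Fam162a, Nfil3, Sap30 and Stc1. P4ha2 passed without R tumor 5 or VdR tumor 4 (0.0110 and 0.0361). Among the 35 genes in VR versus R and the 10 followed in each other comparison, the sign turned for 3 differences near 0, to 0.01255 for Plod2 in VR versus R without R tumor 1, to 0.008182 for Errfi1 in VdR versus R and to -0.07252 for Kdm3a in VR versus VdR, both without VdR tumor 1. At the other end these were -0.1336, -0.07299 and 0.1183 when single tumors were left out. The median correlation of gene pairs ran from 0.4124 to 0.5721 when a tumor was left out, lowest without R tumor 5. No gene passed for the glycolysis relation under any alternative after adjustment. The arrangements allow no p small enough for a few genes to pass, least of all with tumors left out. This result thus says little about stability. Over all genes, array weights gave 5667, 2595 and 884 calls and the t-test 2120, 493 and 30, beside 3500, 1555 and 570. The cause of these changes was not tested.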
